A study of Homo sapiens with 4 samples.

Results

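Heat shock proteins and chaperonins, the genes whose products fold other proteins and hold damaged ones, were described in single melanoma cells. Members were the genes of the count table whose symbols begin with HSPA, HSPB, HSPD, HSPE, HSPH, HSP90, DNAJA, DNAJB, DNAJC, BAG or CCT and go on with a number or letter, as these families are named. That rule found 81 of the 19238 genes in the table. The symbols HSPBAP1 and HSPBP1 and 3 antisense entries begin in the same way but belong to none of these families, and they were left out. Levels are given as CPM, a gene's counted molecules over all counted molecules of a library times 1000000. With a minimum of 10 CPM in 1 or more libraries, 54 of the 81 members and 7421 of all genes counted as measured. Measured members numbered 8 of 14 in the HSP70 family, 3 of 3 in HSP90, 2 of 5 among small heat shock proteins and 7 of 8 among the CCT genes. The J-domain families had 3 of 4 DNAJA, 7 of 11 DNAJB and 16 of 27 DNAJC members measured. Of the BAG genes, 5 of 6 were measured, and HSPH1, HSPD1 and HSPE1 were all measured.

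The study profiled 3 metastatic sublines and the melanoma line from which they were derived, with droplet-based 3′ RNA sequencing and 1 library per line. Subline 113/6-4L is labelled by its lung metastasis, 131/4-5B1 and 131/4-5B2 are labelled by brain metastasis, and WM239A, the parental human line, is labelled poorly metastatic. No treatment is named for any line. Cell names end in a barcode suffix from 1 to 4. Which line a suffix stands for could not be worked out from the labels, so each suffix was described as an unlabelled library and no lines were compared. With 1 library per suffix there is no replicate and no test, and every interval given is a 95% interval that covers counting error only.

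Cytosolic HSP70 proteins bind exposed stretches of unfolded proteins, J-domain proteins (the DNAJ genes) bring clients and stimulate the ATPase of HSP70, and HSP110 and BAG proteins help to release the nucleotide. HSP90 takes over clients such as kinases and receptors at a late step, small heat shock proteins hold unfolded proteins without ATP, and the ring-shaped complex TRiC, built from CCT subunits, folds actin and tubulin. Some of these genes are switched on by heat shock factor 1 under stress (HSPA1A, HSPA1B, HSPA6, DNAJB1, HSPH1, HSPB1, HSP90AA1, BAG3), others such as HSPA8 and HSP90AB1 are made all the time, and those of the endoplasmic reticulum (ER) answer to the unfolded protein response.

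The suffixes held 2121, 1779, 2140 and 2133 cells, in the order of suffixes 1 to 4, which is kept throughout for lists of 4 values. Each summed to between 71182648 and 71915542 unique molecular identifiers (UMIs), so 1 CPM rests on about the same number of molecules in every suffix. The median mitochondrial share of a cell was lowest in suffix 1 at 5.41%, against 6.73%, 7.12% and 6.83%. Melanocytic markers were present in every suffix, and 6 of 7 were measured. PMEL had 2201, 2766, 4883 and 4496 CPM, and the 7 markers summed to 5081, 5501, 8558 and 7949 CPM. Their sum was thus highest in suffix 3, in which most members were lowest, and the part of this in the members' levels was not tested. The list did not move as a whole: 4 of the 6 measured markers were highest in suffix 3, SOX10 in suffix 1 and TYR in suffix 4. TYRP1, which was not measured, had 9.37, 0.195, 0.896 and 0.576 CPM. Only 1 of 3 endothelial, 2 of 4 immune and 2 of 3 epithelial markers were among the counted genes, so the others could not be looked at. Of those present 0 were measured, with summed levels of at most 0.0698, 1.03 and 1.97 CPM. Of 4 fibroblast markers 3 were among the counted genes and only LUM was measured, and the 3 summed to 13.6, 2.21, 0.210 and 0.450 CPM. LUM itself had 12.7, 2.18, 0.182 and 0.407 CPM. DCN had at most 0.949 CPM, and COL1A1 had at most 0.0281 CPM and 0 UMIs in suffix 1. Suffix 1, in which many members were highest, was thus also the suffix with the most LUM, and the part of this in the members' levels was not tested. The table shared 39 barcodes between suffixes, which concerned 78 of 8173 cells. No correction was made for free RNA and no cells were removed as doublets.

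Short stretches of the promoters show the elements through which stress factors are known to act, and they mark which inducible and which constitutive genes carry them. The sequences come from RefSeq promoter windows on GRCh38.p14, 250 bases before to 50 bases after each start and coordinates are those of that build. The search covered both strands for a 2-unit heat shock element (GAANNTTC or TTCNNGAA), a 3-unit one (GAANNTTCNNGAA or TTCNNGAANNTTC, each of which contains the 2-unit form) and the ER stress element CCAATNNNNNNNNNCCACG. Capitals mark the matched letters. All stretches lie before the RefSeq start used, but those of HSP90AA1, HSPA8 and HSP90B1 also overlap exons of the GENCODE annotation.
HSPA1A, chr6:31815425-31815456, plus strand, inducible: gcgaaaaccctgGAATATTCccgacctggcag
HSPA1B, chr6:31827621-31827652, plus strand, inducible: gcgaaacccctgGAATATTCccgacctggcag
HSPB1, chr7:76302479-76302510, plus strand, inducible: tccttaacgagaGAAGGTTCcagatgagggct
DNAJB1, chr19:14518425-14518486, minus strand, inducible: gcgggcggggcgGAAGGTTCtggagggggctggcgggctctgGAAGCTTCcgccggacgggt
HSP90AA1, chr14:102087104-102087133, minus strand, inducible: cTTCCGGAAGGTTCgggaggcTTCTGGAAa
HSP90AB1, chr6:44247766-44247855, plus strand, constitutive: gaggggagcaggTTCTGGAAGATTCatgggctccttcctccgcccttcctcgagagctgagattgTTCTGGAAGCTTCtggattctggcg
HSPA8 distal, chr11:123062346-123062374, minus strand, constitutive: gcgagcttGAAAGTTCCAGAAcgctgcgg
HSPA8 proximal, chr11:123062171-123062199, minus strand, constitutive: cgggccccTTCTGGAAGGTTCtaagatag
HSPA5, chr9:125241379-125241421, minus strand, ER: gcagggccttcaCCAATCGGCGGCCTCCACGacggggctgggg
HSP90B1 distal, chr12:103930211-103930239, plus strand, ER: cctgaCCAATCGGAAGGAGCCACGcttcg
HSP90B1 proximal, chr12:103930316-103930344, plus strand, ER: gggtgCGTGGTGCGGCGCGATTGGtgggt

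Of the 54 measured members, 49 matched a window by symbol. The 2-unit element stood in 15 of these 49, or 30.6%, against 16.2% of all 27305 genes with a window. The 3-unit element stood in 6 of 49, or 12.2%, against 0.608% of all genes. These 6 were DNAJA1, DNAJB6, HSP90AA1, HSP90AB1, HSPA8 and HSPD1. Of the 2-unit element, 4 of 6 inducible and 3 of 5 constitutive cytosolic members with a window had a match. Among the 5 members 3 had the 3-unit form, and among the 6 inducible ones only HSP90AA1 had it. The ER stress element stood in HSPA5 and HSP90B1, 2 of the 9 ER members with a window, and in 0.0916% of all genes. A match describes letters in the reference and not a bound factor, and genes with several windows had more chances to match. The members were limited to measured genes and the 27305 genes were not, so their shares come from unlike sets.

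All members together made up 1.22%, 1.15%, 1.02% and 1.10% of the UMIs of suffixes 1 to 4. A cell's own share ran from 0.776% at the 5th to 1.66% at the 95th percentile in suffix 1, and from 0.678% to 1.36% in suffix 3. On the log2(CPM + 1) scale, which understates ratios of weak genes, 2 of the 54 measured members (3.70%) spanned at least 2-fold between their highest and lowest suffix, against 5.85% of all measured genes. At 1.5-fold the count was 7 members (13.0%), against 17.3% of all measured genes. Both counts include HSPA4L and the second also HSPA1A, which each passed 10 CPM only in the suffix where it was highest. The same filter was applied to all genes. The median span was 1.27-fold for the members and 1.26-fold for all measured genes. The shares of members that spanned either fold were thus no larger than those of all genes.

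The suffix in which each member was highest or lowest was counted as well. Suffix 1 was the highest of the 4 for 28 of 54 members and suffix 2 for 17, where 44.9% and 19.2% of all measured genes had their highest value there. Suffix 3 was highest for 0 of 54 members, against 18.2% of all genes, and lowest for 31 (57.4%), against 31.5% of all genes. When counts were scaled by TMM, by median-of-ratios size factors or by totals without mitochondrial and ribosomal genes, suffix 3 became highest for 2, 2 and 3 members and remained lowest for 27, 28 and 28. These scalings raised the median of all genes in suffix 3 by 0.0246, 0.0158 and 0.0235 on the log2 scale. Shares of all genes under them are not given here, so 18.2% and 31.5% are not their background. Between suffixes 1 and 3, 5 members were at least 1.5-fold higher in suffix 1, against 7.06% of all genes, and 0 were lower by as much, against 4.97%. These 5 were HSP90AA1, CCT6A, HSPA13, BAG2 and HSPA1A, of which HSPA1A entered the measured set through suffix 1 alone. HSPA4L, named below, entered it through suffix 2 alone. Between suffixes 2 and 3, BAG2, HSPA4L and HSPE1 were higher in suffix 2 by as much, against 2.87% of all genes, and between suffixes 2 and 4 BAG2 and HSPA4L were, against 2.21%. In suffix 1, HSPA4L was lower than in suffix 2 (3.76% of all genes) and 0 members were higher (5.08%). Only BAG2 was higher in suffix 1 than in suffix 4, against 6.54% of all genes, and 0 were lower, against 4.62%. Suffixes 3 and 4 were the closest pair, with 0 members apart in either direction, against 0.229% higher and 0.0943% lower over all genes. Suffix 2 had 0 members lower than in suffix 3 (2.65%) or in suffix 4 (1.9%).

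**Figure D1:**
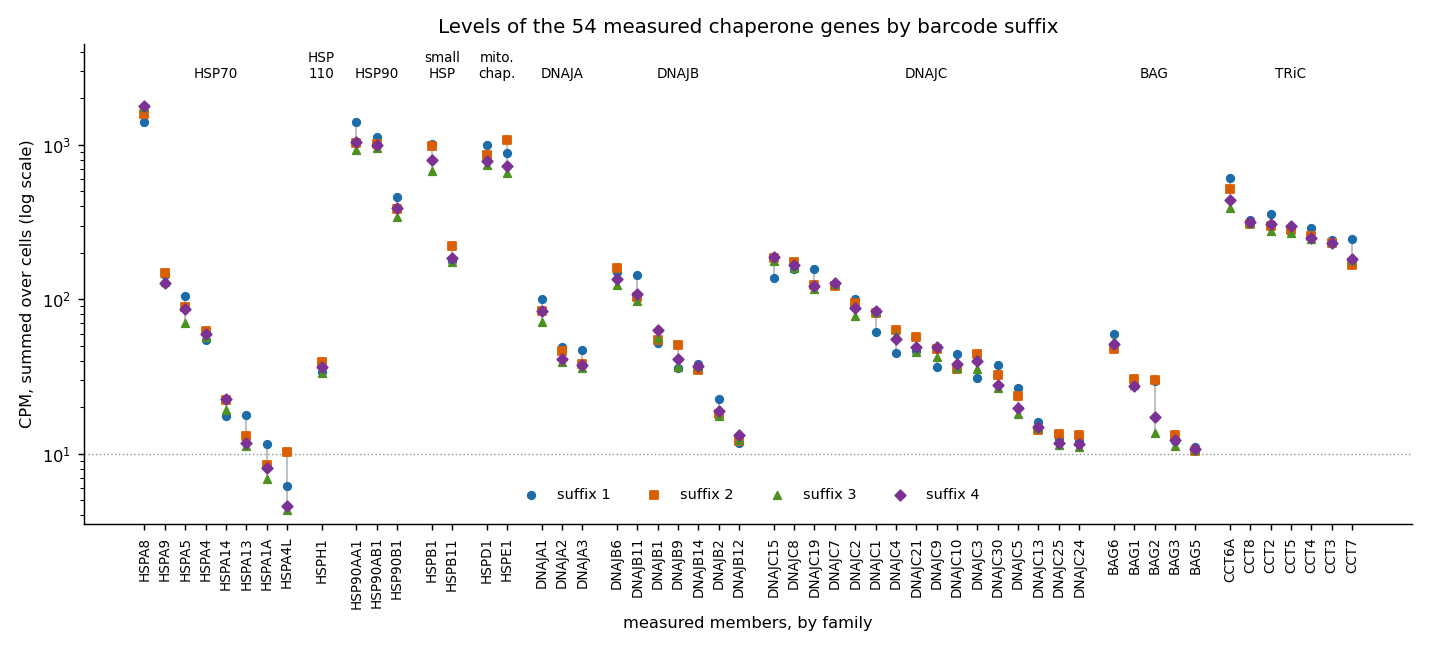
CPM on a log axis for each of the 54 measured members, grouped by family, with 1 symbol per barcode suffix and a grey line over the range; the dotted line marks 10 CPM. HSPA8, HSP90AA1, HSP90AB1, HSPB1, HSPD1 and HSPE1 stood near 1000 CPM, and suffix 3 was the highest suffix for none of the genes shown.

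UMI counts from 3′ ends do not scale with transcript length, so CPM values of different genes are given side by side, although genes can still differ in how well their 3′ ends are captured. HSPA8, the constitutive cytosolic HSP70 that folds new proteins and uncoats clathrin vesicles, was the most abundant member, with 1416, 1575, 1759 and 1783 CPM. Its level was 1.26-fold higher in suffix 4 than in suffix 1 (1.25 to 1.27), the opposite order to most members. HSPA1A, the main heat-inducible HSP70, had only 11.6, 8.45, 6.91 and 8.11 CPM, and its near-copy HSPA1B had 1.84, 1.45, 1.08 and 1.31 CPM. HSPA1A was highest in suffix 1, 1.68-fold above suffix 3 (1.5 to 1.89). It passed 10 CPM in suffix 1 alone, so it entered the measured set through the suffix in which it was high. The 2 transcripts share an identical run of 1715 bases that ends 481 and 596 bases before their 3′ ends, so the split of reads between them is uncertain. HSPA6, a strictly heat-inducible HSP70, had 0.489 to 0.604 CPM.

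The other HSP70 relatives were lower. HSPA4, an HSP110-type exchange factor, had 54.8, 62.4, 56.6 and 59.5 CPM, and its heat-inducible relative HSPH1 had 34.0, 39.1, 33.5 and 36.7 CPM, which put the suffixes within 1.17-fold for both. HSPA4L, a further relative of HSPA4, had 6.17, 10.2, 4.33 and 4.57 CPM, and was highest in suffix 2, 2.37-fold above suffix 3 (2.07 to 2.71). It passed 10 CPM in suffix 2 alone, so it entered the measured set through the suffix in which it was high.

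HSP90AA1, the stress-inducible cytosolic HSP90, had 1408, 1029.7, 926 and 1046 CPM. Suffix 1 stood apart from the others and was 1.52-fold above suffix 3 (1.51 to 1.53). HSP90AB1, the constitutive form, had 1120.0, 1006, 960.5 and 996 CPM, a range of 1.17-fold. HSPB1, an inducible small heat shock protein that binds unfolded proteins and actin filaments, had 1014, 988, 677 and 799.9 CPM, so suffixes 1 and 2 were both above suffixes 3 and 4. HSPB11, which carries a heat shock name but is also known as a part of intraflagellar transport, had 177, 219.8, 174 and 186 CPM. HSPB8, the small heat shock protein that works with BAG3, did not reach 10 CPM and had 8.57, 2.61, 3.29 and 3.17 CPM.

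Among J-domain partners, DNAJA1, a constitutive cochaperone of HSPA8, had 101, 83.9, 71.0 and 84.5 CPM, and DNAJA2 had 49.4, 46.3, 39.5 and 40.9 CPM. DNAJB1, the inducible partner in stress, ran the other way with 52.0, 54.3, 56.1 and 63.4 CPM. DNAJB6, an inhibitor of aggregation, had 150.0, 159, 125 and 135 CPM. Among DNAJC genes, DNAJC8, linked to splicing, stayed within 1.11-fold (158, 174, 160.4 and 167 CPM), and DNAJC7, which binds both HSP70 and HSP90, within 1.04-fold (124, 123, 126 and 128 CPM). On vesicles, DNAJC5, the cysteine string protein, had 26.6, 23.5, 18.1 and 19.6 CPM, and DNAJC13, an endosomal protein, had 16.0, 14.2, 14.8 and 14.8 CPM. Of members with no assigned compartment, DNAJC4 had 45.2, 62.9, 59.1 and 55.2 CPM and DNAJC25 had 12.4, 13.4, 11.4 and 11.8 CPM.

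The BAG proteins had modest levels. BAG2, an inhibitor of the CHIP ubiquitin ligase, gave the 2-fold span of the family, with 29.5, 29.8, 13.6 and 17.2 CPM. Suffixes 1 and 2 were thus close to each other and suffix 2 lay 2.19-fold above suffix 3 (2.03 to 2.37). BAG3, the inducible member that steers clients to autophagy, had 12.1, 13.3, 11.3 and 12.3 CPM. BAG6, a guide for stray membrane proteins, had 59.6, 47.7, 53.4 and 51.5 CPM, and BAG1 had 28.4, 30.5, 27.8 and 27.6 CPM.

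The CCT genes encode subunits that TRiC holds in equal numbers. CCT6A stood out in level, with 609, 516, 391 and 436 CPM, and was 1.56-fold higher in suffix 1 than in suffix 3 (1.53 to 1.58). The next were CCT8, with 327, 307, 311 and 315 CPM, and CCT2, with 355, 297, 278 and 309 CPM. CCT3 was the steadiest of the complex at 242, 232, 234 and 233 CPM. CCT7 was 1.46-fold higher in suffix 1 than in suffix 2, with 245, 167, 179.7 and 182 CPM. The ratio of CCT6A to CCT8 was 1.86, 1.68, 1.26 and 1.39, so subunit transcripts did not move in step. CCT6B, a copy of CCT6A known from testis, had at most 1.16 CPM. TCP1, the remaining subunit, falls outside the naming rule and had 190.2, 158, 139 and 149 CPM.

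In mitochondria, HSPD1 and HSPE1 encode the barrel and the lid of the chaperonin, from genes that face away from each other with starts 104 bases apart. HSPD1 had 998, 865, 742 and 791 CPM and HSPE1 had 889, 1068, 659 and 726 CPM. HSPE1 was therefore highest in suffix 2, 1.62-fold above suffix 3 (1.60 to 1.64), whereas HSPD1 was highest in suffix 1. The ratio of HSPE1 to HSPD1 was 1.23 in suffix 2, against 0.891, 0.888 and 0.917 in suffixes 1, 3 and 4. DNAJA3, a mitochondrial J-domain protein, had 47.1, 38.0, 36.0 and 37.6 CPM. HSPA9, the mitochondrial HSP70 that pulls proteins through the inner membrane, had 144, 148, 129 and 127 CPM. DNAJC15 and DNAJC19, J-domain proteins of the import motor, differed in order, DNAJC15 with 138, 186, 177 and 189 CPM and DNAJC19 with 157, 123, 116 and 121 CPM.

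In the ER, HSP90B1 (GRP94, the HSP90 of that compartment) had 459, 384, 339 and 392 CPM. HSPA5 (BiP, the ER HSP70 that also restrains the stress sensors) had 105, 89.0, 70.1 and 86.2 CPM, and DNAJB11, its J-domain partner, had 144, 103, 98.2 and 108 CPM. All of these were highest in suffix 1 and lowest in suffix 3. HSPA13, a less abundant ER HSP70, spanned 1.58-fold with 17.7, 13.0, 11.2 and 11.7 CPM. Other ER members ran against that order: DNAJB9, a partner that represses the stress sensor IRE1, had 35.9, 50.3, 36.7 and 41.3 CPM, and DNAJC1 had 61.3, 81.5, 83.4 and 84.6 CPM.

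Reads can also align to pseudogenes, which were looked up in the annotation for 10 abundant members and not for the others. They numbered 26 for HSPE1, 17 for HSPD1, 17 for HSPA8, 5 for HSP90AB1, 4 for HSP90AA1, 4 for CCT6A, 2 for HSP90B1, 2 for HSPB1, 1 for HSPA9 and 0 for HSPA5. The sources used here do not say how such reads were counted.

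By class, the 8 inducible cytosolic members summed to 2534, 2135, 1712 and 1968 CPM, which was 1.48-fold higher in suffix 1 than in suffix 3 (1.47 to 1.49). HSP90AA1 and HSPB1 gave nearly all of that sum. The 6 constitutive cytosolic members outside TRiC summed to 2759, 2796, 2905 and 2987 CPM, a range of 1.08-fold in the other direction. That direction rested on HSPA8, since the median over the 6 genes was 0.025 lower on the log2 scale in suffix 4 than in suffix 1. TRiC summed to 2354, 2056, 1909.6 and 2022 CPM, ER members to 948, 848, 759 and 852 CPM, and mitochondrial members to 2417, 2467, 1890.2 and 2025 CPM. In cells with at most 10% mitochondrial UMIs, the log2 difference of the inducible class between suffixes 1 and 3 was 0.56, against 0.57 in all cells. Under the same limit the log2 difference was 0.29 for TRiC and 0.31 for ER members (suffix 1 over 3), 0.38 for mitochondrial members (suffix 2 over 3) and 0.12 for the constitutive class (suffix 4 over 1).

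Each inducible gene was also set against its constitutive relative within the same suffix, a ratio that does not depend on library scaling. HSPA1A plus HSPA1B amounted to 0.952%, 0.629%, 0.454% and 0.528% of HSPA8. The interval of suffix 1 (0.893% to 1.01%) lay above those of the other suffixes. The ratio of HSP90AA1 to HSP90AB1 was 1.26, 1.02, 0.964 and 1.05, again highest in suffix 1. HSPH1 over HSPA4 did not part the suffixes, with 0.621, 0.626, 0.591 and 0.617 and overlapping intervals. DNAJB1 over DNAJA2 ran in the opposite direction, with 1.05, 1.17, 1.42 and 1.55.

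**Figure D2:**
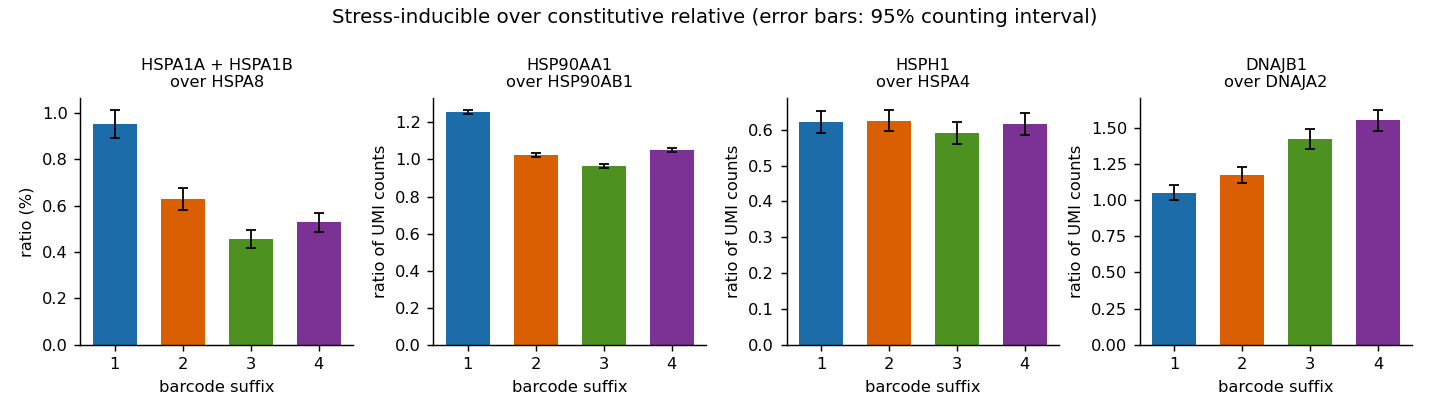
Ratio of UMI counts of each stress-inducible gene to its constitutive relative, by barcode suffix, with 95% counting intervals; the first panel is in percent. The first 2 ratios were highest in suffix 1, HSPH1 over HSPA4 stayed between 0.591 and 0.626, and DNAJB1 over DNAJA2 was highest in suffix 4 at 1.55.

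Genes that work with the chaperones were counted in the same way, beside 17.3% of all measured genes that spanned 1.5-fold. A list of 4 genes held the heat shock factors HSF1, HSF2 and HSF4 and HSBP1, a protein that binds such factors. Only HSF1 and HSBP1 were measured, and 0 of these 2 spanned 1.5-fold. HSF1 had 72.8, 54.9, 63.3 and 59.4 CPM, and HSBP1 had 588, 475, 419 and 436 CPM. The factors HSF2 and HSF4 were not measured. Of 13 cochaperones 12 were measured, and only AHSA1, the activator of the HSP90 ATPase, spanned 1.5-fold, with 62.2, 43.6, 37.2 and 41.5 CPM. Of 8 prefoldin and related genes only PDCL3, a folding aid of TRiC clients, did so. All 12 further ER folding genes were measured, and 1 spanned 1.5-fold: PDIA4, an ER disulfide isomerase, with 165, 128, 88.7 and 109 CPM. Of the 11 mitochondrial folding and protease genes 0 spanned 1.5-fold. Of 5 measured regulators of the unfolded protein response, 3 spanned 1.5-fold: ATF4, DDIT3 and TRIB3. TRIB3, a target of ATF4, had 114, 38.3, 100.4 and 59.8 CPM, an order of suffixes unlike that of HSPA5. Of 9 measured immediate early genes, which respond to handling as well as to growth signals, 3 spanned 1.5-fold. JUN had 16.6, 25.5, 41 and 38.5 CPM and JUND had 11, 15.4, 18.5 and 16.2 CPM, both lowest in suffix 1. IER3 had 227, 144, 151 and 137 CPM and was highest in suffix 1, as HSPA1A was. The early genes thus did not share 1 order of the suffixes.

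For the spread between cells, 10000 UMIs were drawn at random from every cell, which left out 6, 1, 1 and 1 cells with fewer. The excess squared coefficient of variation (CV) is the variance minus the mean, divided by the squared mean, so it is near 0 for counts that vary by sampling alone. Among members with at least 50 CPM, 29 to 31 per suffix, its median was 0.103, 0.0958, 0.0884 and 0.0775, against 0.0832, 0.0700, 0.0712 and 0.0662 for all genes of at least 50 CPM. Without the 1% of cells with the most UMIs of each member, the members' median was 0.0518, 0.0291, 0.0182 and 0.0193. This cut takes away each gene's own highest counts, so it lowers the excess even of counts that vary by sampling alone. It was not made for all genes, so the fall does not show that the spread rested on few cells. HSPA5 varied most in suffixes 2, 3 and 4, with an excess of 0.573, 0.450 and 0.267, and had 0.386 in suffix 1, where HSPA9 was just above it. HSPA5 exceeded 95.1%, 98.2%, 97.0% and 94.8% of all genes of at least 50 CPM. A UMI of HSPA5 was found in 62.0%, 58.5%, 47.9% and 56.3% of thinned cells. When the 1% of cells with the most HSPA5 UMIs was left out, the excess in suffixes 2, 3 and 4 was 0.130, 0.190 and 0.0887, a fall that this cut brings in part by itself.

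Other ER genes differed in rank between suffixes. DNAJB11 had 0.0846, 0.107, 0.230 and 0.0799, and exceeded 50.9%, 70.6%, 92.0% and 58.6% of genes. DNAJB9 reached 50 CPM in suffix 2 alone, where its excess was 0.397. DNAJC1 exceeded 8.17%, 43.9%, 60.1% and 57.6% of genes. Some cytosolic members had their highest excess in suffix 1, where the 90th percentile of all genes was also highest, at 0.250 against 0.196, 0.205 and 0.178. DNAJA1 had 0.325 there, against 0.174, 0.183 and 0.107. HSPA4 had 0.349, against 0.155, 0.145 and 0.0353. HSPA8, which was found in 99.3% of thinned cells of suffix 1, had 0.287, against 0.130, 0.154 and 0.135. Others ran the other way, such as DNAJC8 with 0.0476 in suffix 1, against 0.124, 0.0631 and 0.0755. DNAJC19, an import motor subunit, was among the 3 lowest members in every suffix, with 0.0318, 0.0203, 0.0242 and 0.0108.

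**Figure D3:**
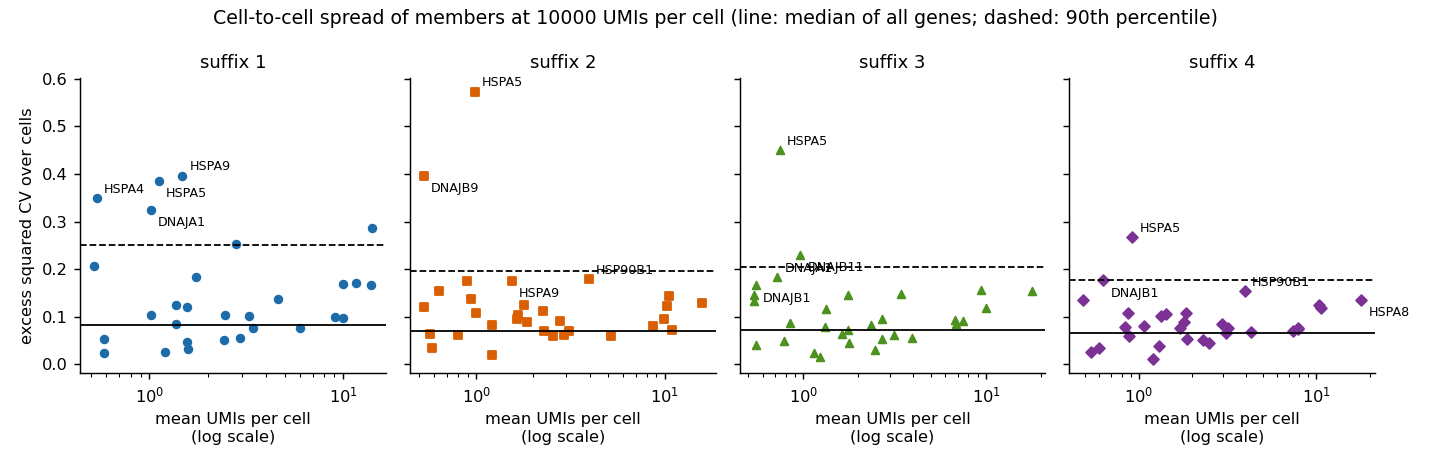
Excess squared CV over cells against mean UMIs per cell (log axis) for members of at least 50 CPM, 1 panel per barcode suffix; the solid line is the median of all genes of at least 50 CPM and the dashed line their 90th percentile. HSPA5 lay above the dashed line in all 4 panels, and suffix 1 held several more members above it.

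The value of HSPA9 in suffix 1, 0.396, rested on a single cell. After thinning that cell had 41 HSPA9 UMIs, and the next highest had 9. Without it the excess was 0.0675. The cell held 33532 UMIs, 5052 genes and 0.391% mitochondrial UMIs, and was assigned to G2M. Members made up 3.77% of its thinned UMIs, against a median of 1.21% and a maximum of 2.97% in the 2114 other cells. CCT5 had 48 UMIs in the cell, against a mean of 2.79 and a maximum of 15 in the others, and HSPA4 had 7, against a mean of 0.531 and a maximum of 5. Per the GENCODE annotation HSPA9, HSPA4 and CCT5 all lie on chromosome 5. Genes of chromosome 5 made up 11.02% of the cell's thinned UMIs, against a median of 3.84% and a maximum of 6.41% in the other cells. Of 111 chromosome 5 genes with a mean of at least 0.5 UMIs, 60 (54.1%) were at least 2 times their mean in the cell, against 17.7% of 2350 genes on other chromosomes. Outside the module, CCNB1, the mitotic cyclin on chromosome 5, had 78 UMIs, against a mean of 0.975 and a maximum of 12. Not all high genes lay there: HSP90AA1, on another chromosome, had 58 UMIs, against a mean of 14.0 and a maximum of 67. CCT5 itself had an excess of 0.254 with the cell and 0.136 without it, whereas HSPA8 kept 0.284 without it. This cell, and the genes named beside it, were chosen after their values were seen.

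**Figure D4:**
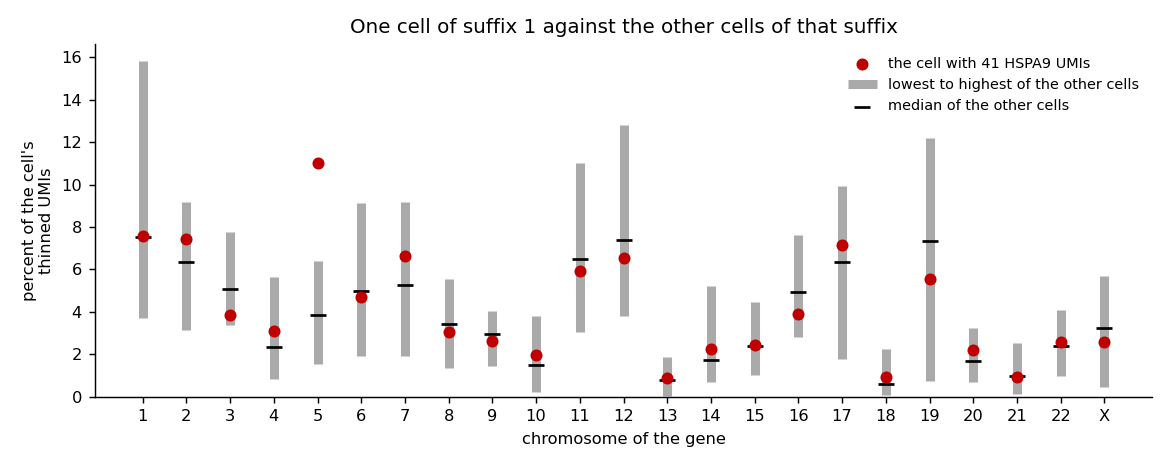
Percent of thinned UMIs from genes of each chromosome in the 1 cell with 41 HSPA9 UMIs (red), beside the range (grey) and median (black) of the 2114 other cells of suffix 1. Only chromosome 5, at 11.02%, lay above the range of the other cells.

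Correlations over cells were weak between most abundant members. Over 28 members with at least 50 CPM in every suffix (378 pairs), the median Spearman correlation over thinned cells was 0.0608, 0.0484, 0.0514 and 0.0533. Over all pairs of 2259 such genes it was between 0.00395 and 0.00545. The 95th percentile of all pairs was 0.0661, 0.0631, 0.0633 and 0.0630, above the members' median in every suffix. Pairs were not matched for level, and sampling noise lowers correlations of weakly counted genes. The part of level in the difference between members and all genes was not tested. The cells of a suffix share 1 library, their thinned depth and the cell cycle, and these values are descriptions with 1778 to 2139 cells each. HSP90AA1 with HSP90AB1 had 0.367, 0.313, 0.246 and 0.239, the highest pair in suffixes 1 and 2. HSP90AB1 with HSPD1, of the mitochondrial chaperonin, had 0.310, 0.304, 0.313 and 0.294, the highest pair in suffixes 3 and 4. HSP90AA1 had 0.324, 0.305, 0.270 and 0.281 with HSPD1, and 0.244 to 0.305 with HSPE1. HSPD1 with HSPE1, which share a promoter region, had only 0.179 to 0.213. Within TRiC the median over 21 pairs was 0.137, 0.0844, 0.0919 and 0.110.

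Cells were assigned to G1, S or G2M from scores over gene lists that hold no chaperone gene, and such calls alone do not measure how many cells divide. Suffix 1 had 777 G1, 835 S and 503 G2M cells, and suffix 4 had 434, 1068 and 630. At least 1.5-fold higher in G2M than in G1 in every suffix were 4 members of 54, HSPA1A, DNAJB1, DNAJC9 and HSPB11, against 5.19% of all measured genes. In S only DNAJC9 was, against 4.31%. Suffix by suffix, 7, 5, 4 and 5 members passed that fold in G2M, against 7.41%, 6.62%, 7.2% and 6.71% of all genes, and 4, 2, 2 and 3 passed it in S, against 6.16%, 5.36%, 6.06% and 5.77%. Of the members, 34 were above G1 in G2M in every suffix and 7 were below, against 39.1% and 26.6% of all genes. In S, 31 were above G1 in every suffix, against 37% of all genes, and 7 below, against 23%. The median log2 ratio of G2M over G1 was 0.14, 0.15, 0.15 and 0.12 for the members and 0.03, 0.03, 0.04 and 0.05 for all genes. The phases differed in depth as well: G1 cells of suffix 1 had a mean of 30376 UMIs and G2M cells 36075, and CPM corrects for the total alone.

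HSPA1A had the largest G2M ratio among members in suffixes 1 to 4, with 3.03 (2.49 to 3.70), 2.69 (2.14 to 3.41), 2.45 (1.90 to 3.17) and 2.83 (2.15 to 3.77). In suffix 1 its level was 6.31 CPM in G1, 11.1 in S and 19.1 in G2M, and in suffix 4 it was 4.87, 5.58 and 13.8 CPM. Outside suffix 1, the S level was close to that of G1. DNAJB1 had ratios of G2M over G1 of 1.94, 1.74, 1.69 and 1.92, with 37.5, 50.8 and 72.7 CPM in G1, S and G2M of suffix 1. HSPH1 had ratios of 1.65, 1.47, 1.45 and 1.39. The ratio of BAG3 lay between 1.18 and 1.48, and that of HSP90AA1 between 1.16 and 1.23. Not every inducible gene followed: HSPB1 was lower in G2M than in G1, at 0.867, 0.864, 0.880 and 0.871. Of the constitutive relatives, HSPA8 was higher in G2M (1.44, 1.30, 1.34 and 1.21), HSPA4 lay between 1.01 and 1.11, and HSP90AB1 was at 0.976, 0.992, 0.905 and 0.874.

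DNAJC9, a J-domain protein that also chaperones histones H3 and H4, was highest in S instead. It had 14.3, 51.9 and 39.6 CPM in G1, S and G2M of suffix 1, and its ratio of S over G1 was 3.63, 2.65, 2.97 and 2.54. HSPB11 was higher in both S and G2M, with ratios of G2M over G1 of 1.70, 1.53, 1.68 and 1.63. HSPA14, a ribosome-bound HSP70, had ratios of S over G1 of 1.80, 1.63, 1.52 and 1.76. These 3 genes, DNAJC9, HSPB11 and HSPA14, and the selection shown in the plot of phase ratios, were chosen after their values were seen.

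**Figure D5:**
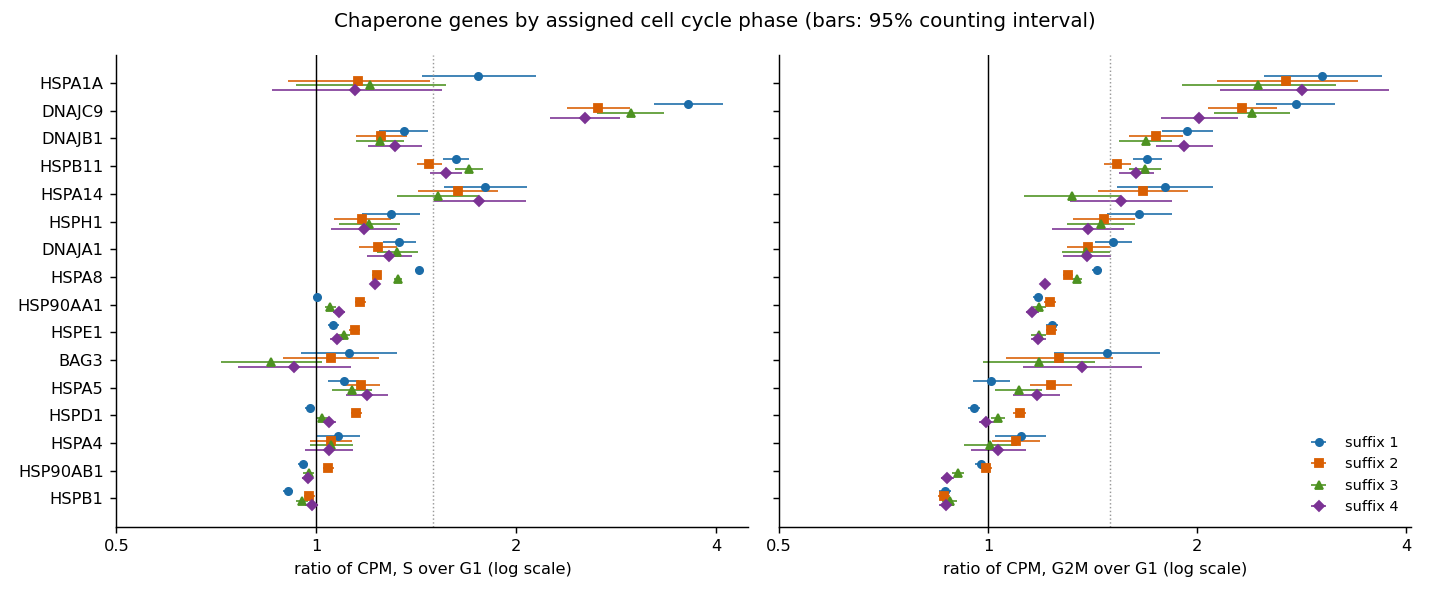
Ratio of CPM in S over G1 (left) and G2M over G1 (right) on a log axis for 16 members, with 1 symbol per barcode suffix and 95% counting intervals; the solid line marks 1 and the dotted line 1.5. HSPA1A, DNAJC9, DNAJB1 and HSPB11 lay above 1.5 in G2M in all 4 suffixes, HSPB1 lay below 1 in all 4, and DNAJC9 was the highest in S.

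Few cells carried much HSPA1A or HSPA1B. After thinning, 1876 of 2115 cells of suffix 1 had none, 202 had 1 UMI and 37 had 2 or more, and in suffixes 2, 3 and 4 there were 17, 9 and 11 cells with 2 or more. Of these high cells, 54.1% (36.9% to 70.5%), 70.6% (44.0% to 89.7%), 55.6% (21.2% to 86.3%) and 81.8% (48.2% to 97.7%) were in G2M, against 23.2%, 26.7%, 23.7% and 29.3% of the remaining cells. The cells were chosen by their HSPA1A and HSPA1B UMIs, so these shares restate the higher HSPA1A level in G2M and add no separate observation. These intervals count cells, which are not replicates. HSP90AA1 was higher in the high cells of every suffix, with 2181 CPM in high cells and 1386 in the rest of suffix 1, and ratios of 1.57, 1.49, 1.14 and 1.62. HSPH1 had ratios of 1.74, 1.53, 2.22 and 0.907, and DNAJB1 of 1.74, 1.23, 1.01 and 1.01, each from few UMIs. In suffix 1, 7 of 29 other members were at least 1.5-fold higher in the high cells, against 4.10% of all genes of at least 50 CPM. The cell described above was one of the 37, and without it the count was 4 of 29. The 4.10% of all genes was computed with this cell included, so it is not the background of that second count. In suffixes 2, 3 and 4 the counts were 1, 3 and 5 members of 31, 30 and 30, against 6.05%, 10.9% and 8.49% of genes. The median mitochondrial share was 4.62% in high cells and 5.41% in the rest of suffix 1. JUN stood at 54.1 CPM in high cells and 15.5 in the rest of suffix 1, and at 9.09 and 39.3 CPM in suffix 4, where the high cells held 1 JUN UMI, so JUN did not go one way.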

How the data were processed

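The authors deposited a table of raw UMI counts per gene and cell, which was used here, and a table of natural log values of the same cells, which was not used. Libraries were made with a droplet-based 3′ kit of version 2, per the labels' protocols. Cell Ranger 3.0.0 and Seurat 3.0 and the builds hg19 and mm10 are named in the submitters' processing notes. The filter on cells, the counting of multiply aligned reads and the role of each build are not given in the sources used here. Every deposited cell had 3001 to 6999 genes and at most 19.9% mitochondrial UMIs.

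Counts were summed over the cells of each barcode suffix and divided by the suffix total (CPM). Exact Poisson, conditional binomial and Clopper-Pearson intervals at 95% cover counting error only. Cells were thinned to 10000 UMIs without replacement for spread, correlations, phases and high cells. Ratios between phases used all UMIs of the thinned cells' barcodes. High cells were those at or above the smallest number of HSPA1A plus HSPA1B UMIs that left at most 5% of cells. Since equal cells were not split, these were the cells with 2 or more UMIs and fewer than 5% of each suffix. They numbered 37, 17, 9 and 11 of 2115, 1778, 2139 and 2132 cells. Calculations were checked on simulated data with known folds and spread. Scaling by TMM (edgeR 4.0.16) was an alternative and edgeR was used for no test. Python 3.11.15, scipy 1.17.1 and R 4.3.3 were used. Promoter windows were those of RefSeq on GRCh38.p14, while the files name hg19, so no coordinate was carried between builds.

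Named members, unless said otherwise, were those that spanned 1.5-fold, the inducible and constitutive pairs, the 3 most abundant of each family and compartment, the 5 with the most spread per suffix and the weakest CCT gene. HSPA6, HSPB8, BAG3, DNAJC1, DNAJC7, CCT3 and CCT7 fall outside this rule and were chosen after their values were seen. Members, lists and classes were chosen with earlier results of these data known.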

Additional observations from a re-analysis of the deposited data

How the results depend on the processing

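No paired analysis was possible because there is 1 library per line and no replicate. Other settings were TMM, median-of-ratios size factors, totals without mitochondrial and ribosomal genes, cells with at most 10% mitochondrial UMIs, G1 cells, and a mean of per-cell CPM. The 3 scalings moved the median of all genes by at most 0.06 on the log2 scale. The cause of the changes listed was not tested unless the setting itself gives it.

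The count of members 2-fold apart, 2, was 1 with the mitochondrial limit, 1 in G1 cells, 0 with a pseudocount of 10 CPM, 5 without a filter and 0 at 50 CPM or more. The count 1.5-fold apart, 7, was 4 under each of TMM, median-of-ratios factors, reduced totals and the larger pseudocount, 13 without a filter and 3 at 50 CPM or more, where fewer genes enter. Members highest in suffix 3, 0, numbered 2 with TMM, 2 with median-of-ratios factors, 3 with reduced totals and 1 in G1 cells. Rankings by suffix under these settings were added after seeing the data. Shares of all genes under these settings are not given beside the counts, which show only how the counts depend on the setting.

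Class differences are log2 values of the higher over the lower suffix, and they kept their sign except in 1 case. The inducible cytosolic class (suffix 1 over 3, 0.57) was 0.48 with TMM, 0.50 with median-of-ratios factors, 0.51 with reduced totals, 0.60 in G1 cells, 0.55 as a per-cell mean and 0.34 as a median over members. TRiC (0.30) was 0.22, 0.24 and 0.25 under the 3 scalings, 0.29 with the mitochondrial limit, 0.29 as a per-cell mean and 0.25 as a median. ER members (0.32) were at 0.24, 0.26 and 0.27 under the scalings and 0.16 as a median. Mitochondrial members (suffix 2 over 3, 0.38) were at 0.37 with TMM, 0.36 with reduced totals, 0.31 in G1 cells and 0.20 as a median. The constitutive cytosolic class (suffix 4 over 1, 0.11) was 0.19, 0.18 and 0.15 under the scalings, 0.12 with the mitochondrial limit and 0.17 in G1 cells, and turned to -0.025 as a median over members.

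In G1 cells, the log2 ratio between suffixes 1 and 3 of HSPA1A plus HSPA1B over HSPA8 was 0.91, against 1.07 in all cells, and that of HSP90AA1 over HSP90AB1 was 0.44, against 0.38, with 0.36 as a per-cell mean. HSPA1A itself was at 0.44 in G1 cells, against 0.75. Without the 1% of cells with the most UMIs of each gene, the median excess squared CV of members was 0.0518, 0.0291, 0.0182 and 0.0193 in suffixes 1 to 4, against 0.103, 0.0958, 0.0884 and 0.0775 in all cells, and that of HSPA9 in suffix 1 was -0.00609, against 0.396. Such a cut lowers the excess even of counts that vary by sampling alone, and it was not made for all genes. HSPA5 in suffix 4 had 0.119 when cells were thinned to 5000 UMIs. At this depth few thinned cells held more than 1 UMI of HSPA1A and HSPA1B, and weaker members such as HSPA6 were found in fewer cells still.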
